A study of Mus musculus with 2 samples.

Results

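The genes described here are the integrins, a pair of selectins and the surface molecules that partner with them on leukocytes and vessel walls, read in regulatory T (Treg) cells from wild-type and Nr4a-TKO mice. They were taken as every non-control probe whose gene name in the scanner files was on a list of 33 genes: 18 integrin alpha chains, 8 integrin beta chains, Sele, Selp, Selplg, Cd44, Icam1, Icam2 and Vcam1. All 33 genes had a probe, and together they had 50 of the 55676 probes and 33 of the 34960 gene names on the array. Total RNA of each sample was labelled with Cy3 and hybridised to a 1-colour Agilent mouse expression array, with 1 array per genotype. The wild-type sample was Treg cells of wild-type genotype, and the other was Treg cells of genotype Nr4a-TKO. Both came from mice 5 weeks old, and the cells were sorted and lysed directly, per the labels' protocols. Which Nr4a alleles make up the genotype, which cells carried the change, how many mice were pooled, their sex and the sort markers are not stated in the labels.

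Integrins are paired receptors of an alpha and a beta chain that hold cells to other cells and to the matrix, and they switch to a binding form when talin and kindlin dock on the beta tail. On T cells, alpha4 pairs with beta1 or beta7 to bind Vcam1 and Madcam1, alphaL pairs with beta2 to form LFA-1, which binds the Icam proteins, and alphaE pairs with beta7 to bind E-cadherin. Selectins are sugar-binding receptors of platelets, vessel walls and leukocytes that let cells roll before integrins stop them. In Treg cells these molecules are known for homing to gut and inflamed tissue and for contact with dendritic cells.

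With 1 array per genotype there is no replicate check and no test, so every difference below is between 2 arrays. A difference is the log2 level in Nr4a-TKO less that in wild-type, once both arrays had been scaled to their own 75th percentile (a processed signal of 830.9 for wild-type and 752.3 for Nr4a-TKO). Processed signals are in the scanner's units before that scaling. A gene is represented by its brightest probe and was counted as measured where the scanner called that probe well above background on both arrays. Genes at least 2-fold apart were counted as different. Signals of different probes are not on a common scale, so levels are compared between arrays and not between genes.

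The scanner called 66.0% of wild-type probes and 63.9% of Nr4a-TKO probes well above background, and 0 spots were saturated. Of the 3 Nr4a family members, Nr4a3 was lower by 7.04-fold, Nr4a1 differed by 0.06 on the log2 scale and Nr4a2 was higher by 2.54-fold, so the genotype stands as a label. Foxp3, the factor that defines Treg cells, was lower by 17.2-fold. Of 8 Treg markers 4 were at least 2-fold lower, with a median over the measured markers of -0.83. Of 8 T cell identity markers 7 stayed within 2-fold, but 6 were lower and 2 higher, with a median of -0.45. The X-linked RNA that the file names XIST was higher by 380-fold and the Y-linked Ddx3y was lower by 3.63-fold, so the sex make-up of the samples moved with genotype, and its part in the differences below cannot be told apart. In sorted cells read in bulk, fewer cells of a type and less RNA per cell cannot be told apart either.

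Some of the probes themselves show what was read. The sequences below were copied from the scanner files, 5′ to 3′ on the transcript's strand, with mm9 coordinates. They were chosen because they lie in coding sequence of genes the results turn on, or because the sequence bears on how a signal is read. The probes of Itga4, Itgb1 and Itgae each span an exon junction, so the interval given holds an intron. In the Itgb1 probe, capitals mark the stretches that encode the motifs of the beta1 tail on which talin and kindlin dock. In Itgam, capitals mark a run of CA repeats, and only the first 30 of its 60 bases are shown.
Itga4, chr2:79153985-79155115, plus strand: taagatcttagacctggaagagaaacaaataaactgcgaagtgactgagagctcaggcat
Itgb1, chr8:131250081-131255976, plus strand: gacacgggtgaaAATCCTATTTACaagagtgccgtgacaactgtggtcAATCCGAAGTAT
Itgal, chr7:134477064-134477123, plus strand: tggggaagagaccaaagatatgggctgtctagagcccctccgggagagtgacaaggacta
Itgae, chr11:72945236-72946221, plus strand: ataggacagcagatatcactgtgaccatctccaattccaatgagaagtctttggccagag
Selplg, chr5:114269206-114269265, minus strand: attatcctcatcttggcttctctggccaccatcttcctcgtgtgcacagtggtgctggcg
Cd44 (middle of the gene), chr2:102677971-102678030, minus strand: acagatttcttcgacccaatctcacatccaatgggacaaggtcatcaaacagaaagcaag
Itgam (end of the transcript), chr7:135261755-135261814, plus strand: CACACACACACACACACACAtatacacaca

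Integrin and selectin genes did not differ in a single direction. Of 33 genes 25 were measured on both arrays, and of these 3 were at least 2-fold higher in the array labelled Nr4a-TKO (Itga7, Itga3 and Itgb5), 3 were at least 2-fold lower (Itga4, Itgb3 and Itgb2) and 19 were within 2-fold. Of all 23494 genes measured, 3.15% reached 2-fold upwards and 3.06% reached it downwards. The 6 adhesion genes make 24% of those measured, against 6.22% of all genes in either direction. The list was chosen with earlier results of these data known, so the 2 shares are not an independent comparison. Of the 6, Itgb5 lies at the 2-fold line. The median difference over the 25 genes was -0.10, beside 0.08 over all genes, with 12 above and 13 below 0. A further 2 genes, Itgae and Vcam1, were well above background on the wild-type array only, and 6 (Itga8, Itga9, Itga11, Itgax, Itgb8 and Sele) on neither.

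**Figure D1:**
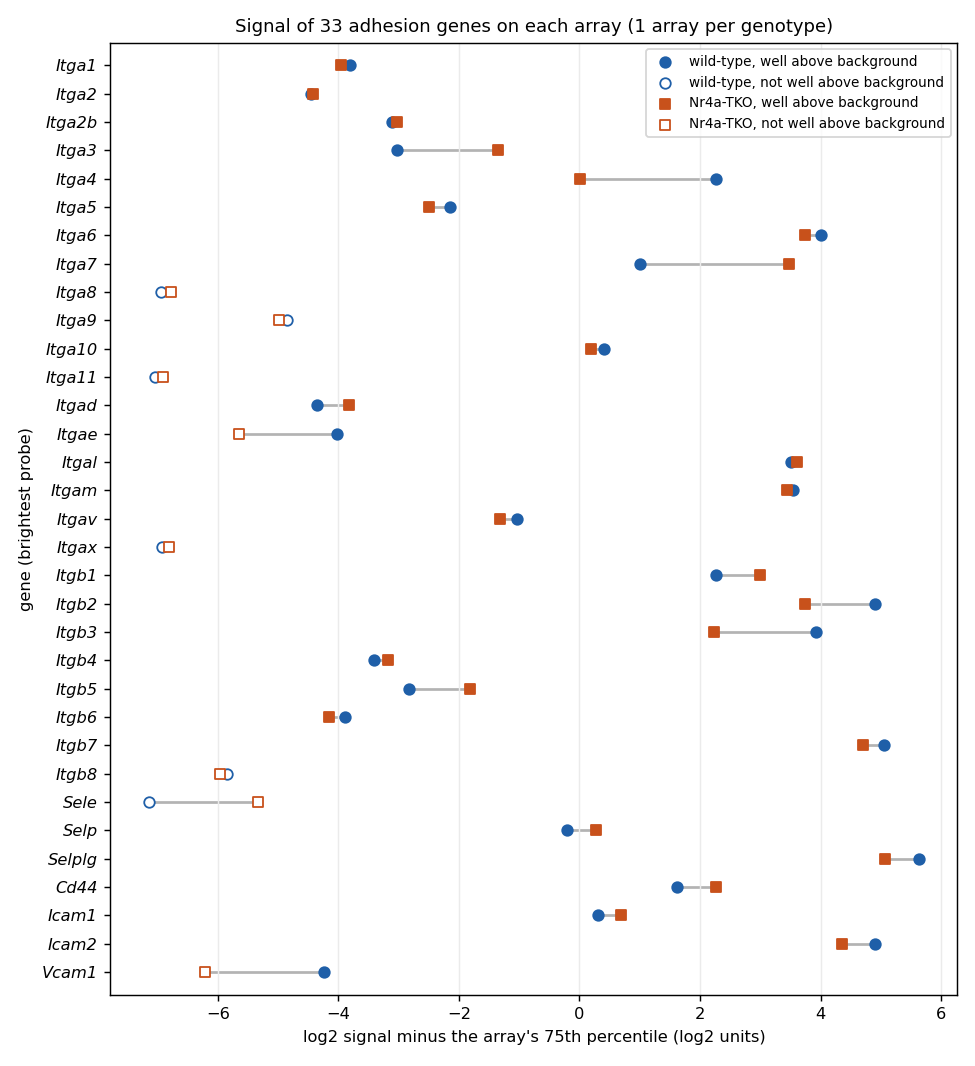
Log2 signal of each of the 33 adhesion genes on the wild-type array (blue circles) and the array labelled Nr4a-TKO (orange squares), each array scaled to its 75th percentile; open symbols are not well above background. Most pairs lie close together, with the widest gaps among measured genes at Itga7 (1.01 and 3.48) and Itga4 (2.26 and 0.01).

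Itga4 encodes the alpha4 chain, which pairs with beta1 or beta7 and takes T cells to inflamed vessels and to the gut. Its brightest probe, at chr2:79173193-79173252 and far down the transcript (base 9754), had a processed signal of 3989.8 in wild-type against 755.1 in Nr4a-TKO. After scaling it was lower by 4.78-fold (-2.26 on the log2 scale, with 0.20 as the scanner's own error of that difference). The junction probe printed above, at base 2292 of the same transcript, was much dimmer, at 94.2 and 41.6, and was lower by 2.05-fold. Both probes were lower, but the size differed between them, and as their mean the gene was lower by 3.13-fold.

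Its partner chains moved less, and in opposite directions. Itgb7 had a processed signal of 27726.9 in wild-type against 19548.2 in Nr4a-TKO, a difference of -0.36. Itgb1 had signals of 3976.4 and 5987.3 at the tail probe printed above, a difference of 0.73 (1.66-fold). A second Itgb1 probe differed by 0.69 (532.0 and 774.6). Both Itgb1 probes were therefore higher by a similar amount, short of 2-fold.

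The other beta7 partner, Itgae, encodes the alphaE chain (CD103) that marks a tissue-resident subset of T cells and Treg cells. Its only probe gave 51.2 in wild-type, which was well above background, and 15 in Nr4a-TKO, which was not. Set against the lowest signal called well above background on that array, Itgae was at least 1.66-fold lower, or at least 1.13-fold with normexp background correction. That bound (-0.73 on the log2 scale) is smaller than the scanner's error of the Itgae difference, 0.79, so the decrease is not settled. Of all genes above background in wild-type only, 15.8% were at least 2-fold lower by such a bound, and Itgae was not among them.

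The leukocyte integrins of the beta2 family were lower at the shared chain and not at the T cell's own alpha chain. Itgb2, the chain common to LFA-1 and the myeloid integrins, had a processed signal of 24995.7 in wild-type against 10082.5 in Nr4a-TKO at chr10:77027978-77028037. It was lower by 2.24-fold (-1.17, scanner error 0.20). Itgal, the alpha chain of LFA-1, differed by 0.11 at its brightest probe (9444.6 and 9219.9) and by 0.10 at the probe printed above (7857.5 and 7640.8). Another Itgal probe, on a clone sequence, was dim (103.0 and 79.6) and differed by -0.23. The sign of the Itgal difference turned with the scaling, from -0.12 to 0.11, so no direction is given for it.

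The myeloid alpha chains Itgam, Itgad and Itgax pair with the same beta2 chain and mark macrophages, granulocytes and dendritic cells. Itgax stayed below the background call in both genotypes (6.85 and 6.67). Itgad was dim on both (40.4 and 53.4) and differed by 0.54 with a scanner error of 0.38. Itgam had a bright probe (9707.8 and 8208.8) that differed by -0.10, while its other probes gave 98.1 and 76.3, and 82.9 and 87.6.

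The bright Itgam probe is the one that opens with 10 CA repeats, printed above. On this array 110 of 55676 probes held at least 8 such repeats on either strand. Of these 99.1% were well above background on both arrays, against 60.9% of all probes, and their median processed signal in wild-type was 35763.5 against 70.7 over all probes. The bright Itgam value therefore came from a probe of a class that is bright throughout the array. Without that probe, a choice made after its values were seen, Itgam was dim on both arrays and differed by -0.22.

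Itgb3 encodes the beta3 chain, which pairs with alphaV on many cells and with alpha2b on platelets. Its brightest probe, at chr11:104531672-104531731, gave 12649.8 in wild-type against 3547.5 in Nr4a-TKO, lower by 3.23-fold (-1.69, scanner error 0.20). Its second probe was dimmer (301.2 and 106.0) and lower by 2.57-fold. Both probes thus passed 2-fold in the same direction.

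Neither alpha partner of beta3 was as far apart. Itgav, which encodes alphaV, differed by -0.29 at its brighter probe (406.8 and 300.4) and by 0.03 at the other (214.7 and 199.0). Itga2b, the platelet alpha chain, was dim on both arrays (96.6 and 91.8) and differed by 0.07, with a sign that turned between settings. Of 9 platelet and megakaryocyte markers, 2 were measured on both arrays, Pf4, Ppbp, Gp1ba, Gp5 and Gp9 were not well above background on either, and Treml1 was at least 4.17-fold lower. The summed level of the list was 0.483 in wild-type against 0.335 in Nr4a-TKO, in units of each array's 75th percentile. Such sums, here and below, add probes not on a common scale, with those not above background among them. They do not measure the share of a cell type. The part of platelets in the Itgb3 difference was not tested.

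The remaining alphaV partners are Itgb5, Itgb6 and Itgb8, of which alphaV-beta6 and alphaV-beta8 release active TGF-beta. Itgb5 had signals of 117.5 and 212.8, a difference of 1.0 on the log2 scale with a scanner error of 0.22. It lies at the 2-fold line, and it fell short of it with normexp (1.61-fold), under every other scaling run and in the deposited log2 table. Itgb8 was below the background call on both (14.4 and 12.1), and Itgb6 was dim on both (56.3 and 42.2) and differed by -0.27 with a scanner error of 0.37.

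Among the laminin receptors, Itga7 and Itga3 were the higher genes. Itga7, best known from muscle, had a processed signal of 1670.7 in wild-type against 8369.8 in Nr4a-TKO at its only probe, chr10:128395274-128395333. It was higher by 5.53-fold (2.47, scanner error 0.20), the widest gap of the 25 measured genes. Itga3 had signals of 101.3 and 293.9 at chr11:94906334-94906393 and was higher by 3.20-fold (1.68, scanner error 0.23), or 2.21-fold with normexp.

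The laminin receptor chain alpha6 did not follow them. Itga6 gave 13419.8 in wild-type against 10042.0 in Nr4a-TKO, a difference of -0.27, and -0.79 at a second probe (673.3 and 353.1). Alpha3, alpha6 and alpha7 all pair with beta1, whose gene differed by 0.73 as above. Itgb4, the epithelial partner of alpha6, was dim (78.5 and 83.4) and differed by 0.23.

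The collagen receptor chains and alpha5 stayed within 2-fold where they were measured. Itga5, which encodes alpha5, a fibronectin receptor chain, had signals of 186.8 and 133.4 and differed by -0.34. Itga10 differed by -0.22 and -0.30 at probes that overlap by all but 6 bases (1101.6 and 857.5 at the brighter). The collagen receptor chains Itga1 (59.4 and 48.5) and Itga2 (37.9 and 35.0) were dim, and differed by -0.15 and 0.03 with scanner errors of 0.34 and 0.38. Itga8, Itga9 and Itga11 were below the background call on both arrays, at 28.6 or less.

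**Figure D2:**
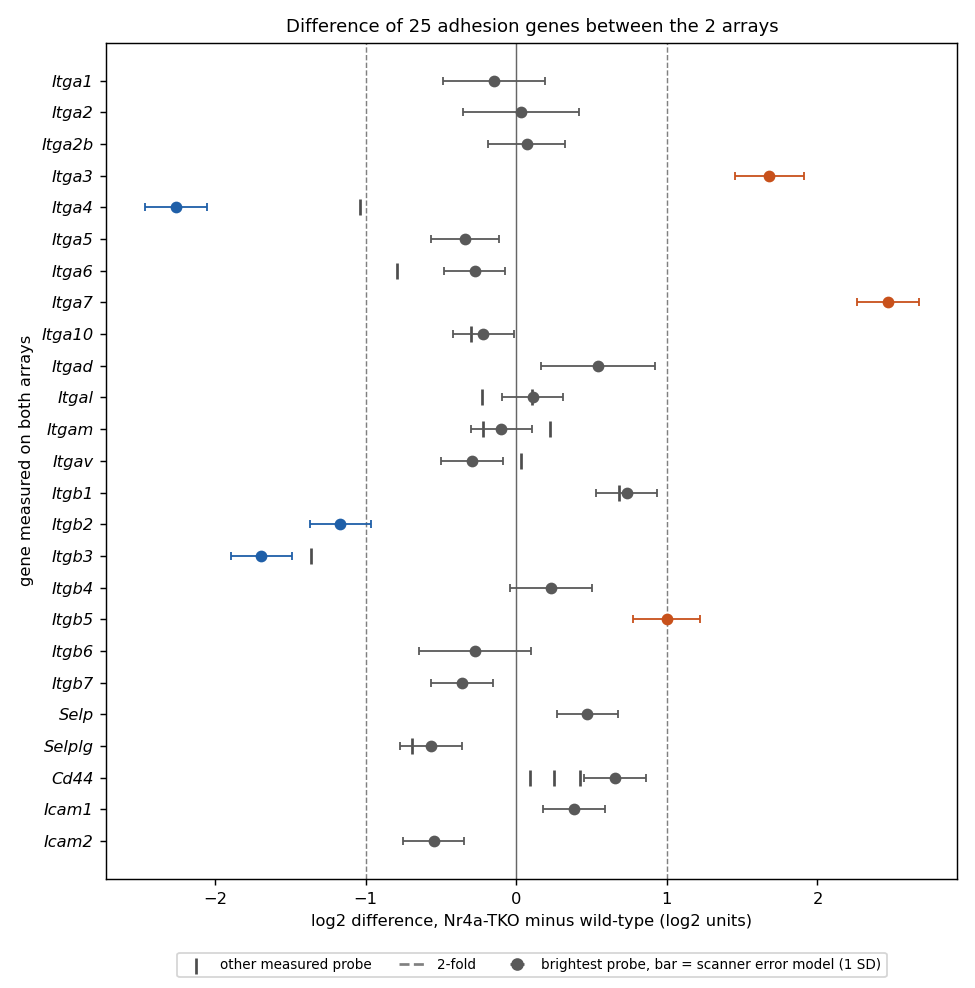
Log2 difference (Nr4a-TKO minus wild-type) of the 25 adhesion genes measured on both arrays; points are the brightest probe (orange or blue at 2-fold or more) with the scanner's error of the difference as 1 SD, and ticks are other measured probes of the gene. Itga4 and Itgb3 have both of their probes beyond the dashed 2-fold lines. Itga7, Itga3 and Itgb2 lie beyond them on 1 probe each, and Itgb5, also with 1 probe, lies on the line.

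Selectins and their ligand differed by less than 2-fold. Selplg encodes PSGL-1, the T cell's main ligand for P- and E-selectin, and had 41244.8 and 25225.6 at its brightest probe, a difference of -0.57. The probe printed above gave 11559.5 and 6479.9, a difference of -0.69, so both probes were lower by a similar amount. Selp, the P-selectin of platelets and vessel walls, was read by 9 usable spots in wild-type against 10 in Nr4a-TKO. Their means were 721.7 and 907.1, with SDs between spots of 0.04 and 0.07 on the log2 scale, and the difference was 0.47. The gap at Selp was thus larger than the spread between its spots. Sele, the E-selectin of vessel walls, was below the background call in both (5.87 and 18.5).

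Cd44 encodes the hyaluronan receptor that rises on activated T cells, and its 4 probes differed among themselves. The probe at the end of the coding part gave 2551.1 and 3636.8, a difference of 0.66. A probe further down the transcript, at base 5494 against 2614, gave 2830.9 and 2737.2, a difference of 0.09. Both probes in the middle of the gene, in the stretch of alternatively spliced exons, were dim, at 161.2 and 195.8 for the one printed above and 96.5 and 104.1 for the other, with differences of 0.42 and 0.25. All 4 values were above 0, but as a mean over probes Cd44 differed by 0.36.

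The immunoglobulin-type partners were mixed. Icam2, a ligand of LFA-1, was lower by 1.46-fold (25011.9 in wild-type against 15490.2 in Nr4a-TKO). Icam1, the better known LFA-1 ligand, differed by 0.38 (1022.9 and 1207.4). Vcam1, the ligand of alpha4-beta1, had 44.1 in wild-type, well above background, and was not well above it in Nr4a-TKO. By the bound it was at least 1.43-fold lower, or at least 1.13-fold with normexp. That bound (-0.51 on the log2 scale) is smaller than the scanner's error of the Vcam1 difference, 0.93, so the decrease is not settled. A second Vcam1 probe was below the background call on both (17.9 and 15.2).

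Because several of these genes are also used by other cells, markers of those cells are given beside them. Of 10 endothelial markers, 3 were measured on both arrays (Kdr, Egfl7 and Esam, all within 2-fold), and Cdh5, Tek, Tie1 and Vwf were not well above background on either. The summed level of the 10 was 10.9 in wild-type against 17.4 in Nr4a-TKO. Nearly all of it came from the Kdr and Egfl7 probes, which differed by 0.39 and 0.87, while 7 of the 10 markers were above background on neither array. Of 11 macrophage and dendritic cell markers, 6 were measured, 1 of them at least 2-fold lower, and their summed level was 141 in wild-type against 139 in Nr4a-TKO. Nearly all of it came from the Siglech probe, without which, a choice made after its values were seen, the sums were 2.49 and 2.86. Of 10 granulocyte and mast cell markers, 4 were measured, with Mpo lower by 7.76-fold and Kit by 5.40-fold, and 3 more had bounds past 2-fold, also lower. The other measured markers, Elane and Camp, differed by -0.07 and 0.13. Prtn3 was above background in Nr4a-TKO only and was at least 1.37-fold higher. The summed level of that list was 2.10 and 1.25. Of 8 CD8 and NK cell markers, 5 were measured, all within 2-fold at their brightest probes. Nkg7 differed by -0.78 there and by -2.62 at its other probe. Klrd1 was at least 6.25-fold lower, and the sums were 6.17 and 3.92. The part of these cells in the differences of Itgb2, Itgae, Selp, Icam2 and Vcam1 was not tested.

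**Figure D3:**
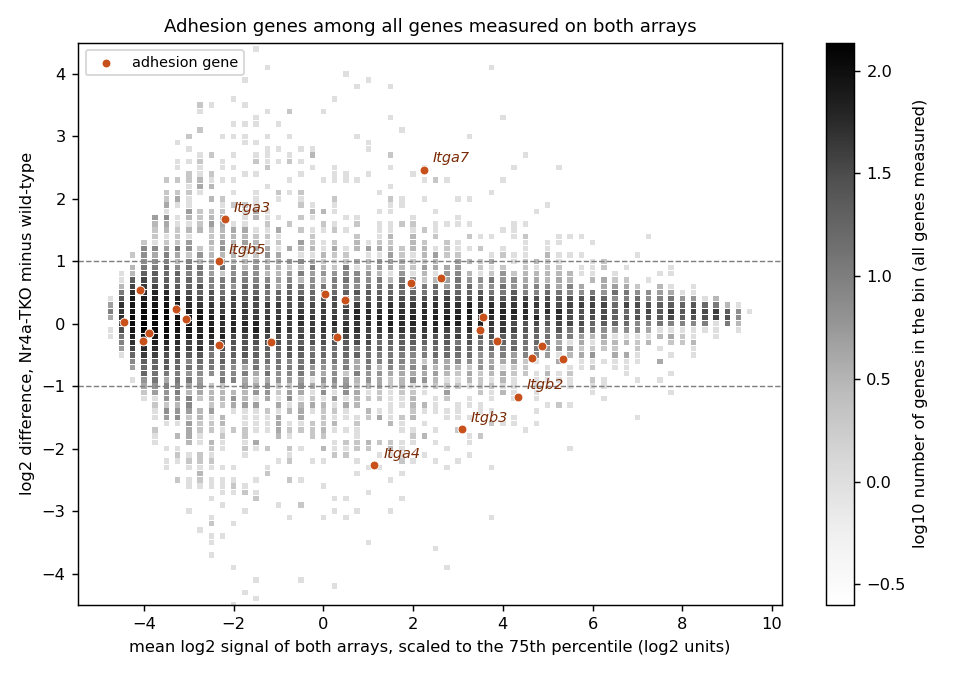
Log2 difference against mean log2 signal of both arrays, both scaled to the 75th percentile, for all 23494 genes measured on both arrays (grey, darker where a bin holds more genes) and for the 25 adhesion genes (orange). The 6 named genes lie at or beyond the dashed 2-fold lines, and 10 genes outside the adhesion set fall beyond the axis.

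The machinery that switches integrins on was mostly within 2-fold. Of 36 genes for integrin activation and linkage to actin, 35 were measured; 1 reached 2-fold upwards and 2 downwards, and the median was -0.09. Over all genes measured, 3.15% reached 2-fold upwards and 3.06% downwards. The list's genes past 2-fold were Rasgrp2 and Rap1gap, which act on Rap1, the small GTPase that triggers integrins, and Cyth1.

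Rasgrp2, the exchange factor that loads Rap1 with GTP, had 10424.6 in wild-type against 2011.6 in Nr4a-TKO and was lower by 4.69-fold, with its second probe at -2.22. Rap1gap, which switches Rap1 off, had 58.8 and 252.2 and was higher by 4.74-fold, or 2.71-fold with normexp. These were the widest gaps of the list in each direction. Cyth1, which binds the beta2 tail, was lower by 2.04-fold (16383.4 and 7275.4), and Cytip, which restrains it, by 1.74-fold.

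About as many integrin ligand genes were measured on both arrays as were not. Of 23 such genes 12 were measured. Of these, 3 reached 2-fold upwards and 2 downwards, beside 3.15% and 3.06% of all genes, and the median was 0.32. A further 2, Col1a1 and Jam3, named here after their values were seen, were above background in Nr4a-TKO only and were at least 2.46-fold and 2.18-fold higher, a bound past 2-fold that 33.6% of all such genes also had. The laminin chain gene Lama5 was higher by 3.12-fold (498.3 and 1406.6) and Icam5 by 2.65-fold (133.4 and 320.6). Madcam1, the gut ligand of alpha4-beta7, was dim and lower by 2.59-fold (121.9 and 42.5), with a second probe at -0.38. F11r, the junction protein that binds LFA-1, was higher by 2.53-fold (53.2 and 121.8), and like Madcam1 it came under 2-fold with normexp. Fn1, the other lower gene, also named after its values were seen, was lower by 2.31-fold (171.1 and 67.1), or 1.48-fold with normexp.

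Among the remaining adhesion lists few genes reached 2-fold, beside 3.15% upwards and 3.06% downwards over all genes measured. Of 10 measured genes among selectin ligands and CD44 partners, 1 was at least 2-fold higher (Cd24a, 2.24-fold) and 0 lower, with a median of -0.16. Of 16 measured membrane partners of integrins, 1 was at least 2-fold higher, Slc3a2 at 2.03-fold, which binds beta1 and serves as an amino acid transporter chain. Slc3a2 passed 2-fold in only 4 of the 9 ways of processing and came down to 1.73-fold with spike-ins as the centre. The list's median was -0.08. Of 16 measured adhesion receptors of other families, 1 was higher (Alcam, 2.23-fold) and 2 lower, with a median of -0.18. Cd96, a receptor for nectin-family ligands, led these at 5.38-fold lower (6735.3 and 1133.5), and L1cam was lower by 2.10-fold. With normexp L1cam came to 1.37-fold and Alcam to 1.87-fold, and with spike-ins as the centre Cd24a came to 1.91-fold.

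**Figure D4:**
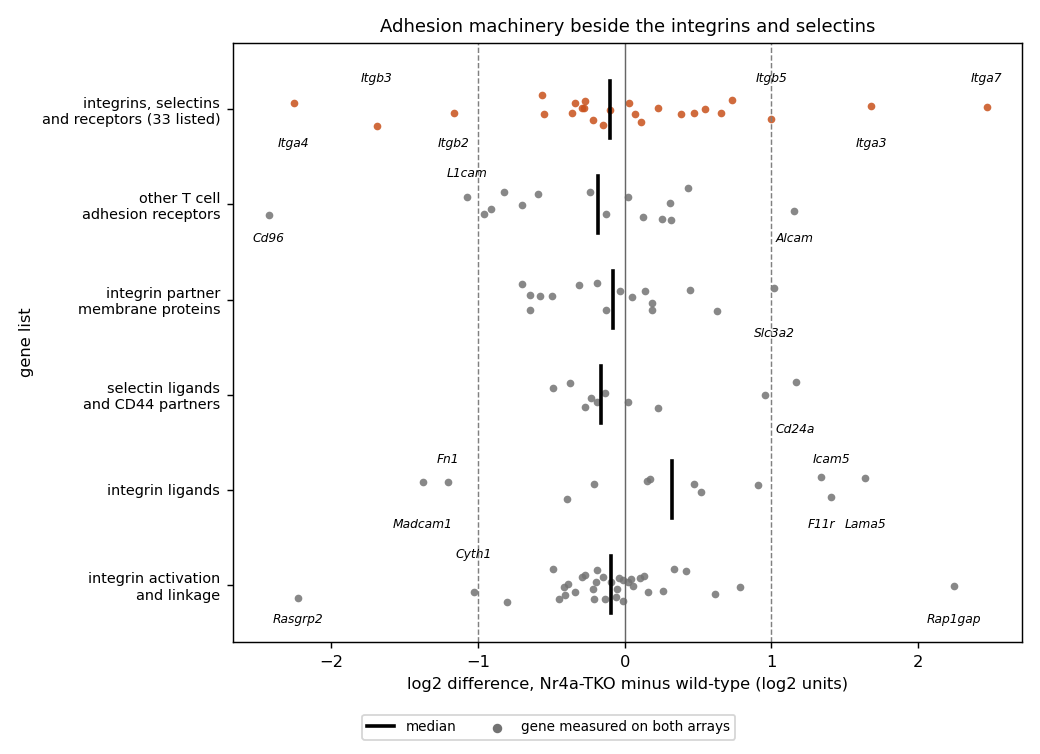
Log2 difference (Nr4a-TKO minus wild-type) of each measured gene in the 33-gene adhesion set (orange) and in 5 lists of related adhesion genes (grey), with black bars at the medians, dashed lines at 2-fold and genes beyond them named. Rasgrp2 and Rap1gap stand at the opposite ends of the activation list.

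Each difference was set beside what these arrays can resolve. The SD between spots of 1 probe, over 262 probes with at least 5 spots, gives 0.08 for a difference. The scanner's error model gave 0.20 to 0.23 for the 6 genes past 2-fold, and each of the 6 differences was at least 4.48 times its own error. Over 6750 genes with several measured probes, the distance between the highest and lowest probe was 0.25 at the median and 1.16 at the 95th percentile. The distance of 1.22 between the Itga4 probes lies beyond that. None of these spreads holds variation between mice or preparations.

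**Figure D5:**
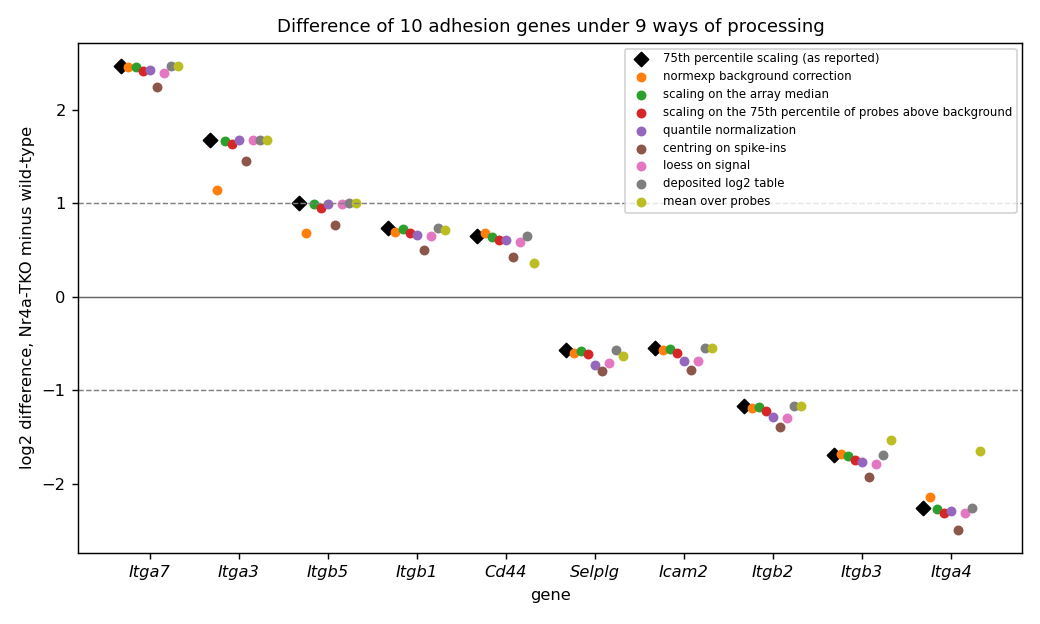
Log2 difference (Nr4a-TKO minus wild-type) of 10 adhesion genes as reported (black diamonds) and under 8 other ways of processing (coloured points), with dashed lines at 2-fold. Itga7, Itga3, Itgb2, Itgb3 and Itga4 stay beyond the lines in each, and Itgb5 does not.

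Nr4a proteins bind the NBRE element, spelled AAAGGTCA, as monomers. RefSeq promoter windows of 300 bases (250 before and 50 after the start, GRCm38.p6) were at hand for 22 of the 33 genes, in 24 windows. Of the genes past 2-fold, Itga7, Itgb2 and Itgb3 had no window and were not searched. These letters, on either strand, were in 0 of the 24 windows, beside 1.51% of all 32851 windows. No match says only that these letters are not in these windows.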

How the data were processed

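Each spot's intensity was deposited as Agilent Feature Extraction (10.10.1.1) wrote it, detrended in space and by a multiplicative fit, with surrogates where a spot was dim and probes placed on mm9, per the file headers. They also deposited log2 values, each equal to that signal on the log2 scale with a constant taken off that differed by array (SD of the gap 0.000289), and how the constant was chosen is not given in the sources. Control spots (3671) and outlier-flagged spots (156 on the wild-type array, 117 on the other) were left out. For each probe the log2 processed signals of its spots were averaged, and the 75th percentile of the array was then subtracted. Gene names came through RefSeq accessions for 27508 probes and from the file otherwise; members kept the file's name, and the accessions of 45 of their 50 probes matched that symbol. All members, and up to 4 genes with the widest gap from each adhesion list, could be named; any other list or marker gene was named after its values were seen. The members and lists were chosen with earlier results of these data known. The lower bounds set the wild-type value against the higher of the dim probe's own signal and the lowest signal called well above background on the other array. These bounds take no account of the scanner's error. The number of arrays limits the precision. Work was done in Python 3.11.15 (numpy 2.4.6, pandas 2.3.3, matplotlib 3.10.9) and limma 3.58.1 under R 4.3.3, and the counting was tested on simulated data. No slide block could be fitted to a pair of arrays. Alternatives were normexp (offset 50), scaling on the median, on detected probes or on spike-ins, quantile normalization, loess (span 0.3), the deposited table, the mean over probes, other dim-probe filters, and 1.5-fold and 3-fold thresholds.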

Additional observations from a re-analysis of the deposited data

How the results depend on the processing

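In all 8 other scalings and probe rules run on single genes, the 6 genes past 2-fold kept their sign, and 3 of 25 measured genes (Itga2, Itga2b and Itgal) turned sign. The count of 3 lower genes became 5 without the filter on dim probes, which let in Itgae and Vcam1, while the 3 higher genes became 4 with Sele. Without that filter 10.9% of all genes were past 2-fold, from 6.22%. At 1.5-fold the higher genes became 5 and the lower stayed at 3, beside 15.7% of all genes in either direction. At 3-fold 2 members were higher and 2 lower, beside 2.43% of all genes. These changes follow from how the settings are built. The median of -0.10 became -0.0093 with normexp, -0.18 with quantile normalization, -0.18 with loess, -0.33 with spike-ins as the centre and -0.22 with the stricter filter (mean signal at or above the 25th percentile of measured genes). With spike-ins the all-gene median moved by -0.23, and 29.7% of all genes past 2-fold were then higher, against 50.7%. Counts over all genes became 475 higher and 456 lower with normexp, from 741 and 720. Without the repeat-bearing Itgam probe, added after seeing the data, the counts did not move. The median of -0.10 was that probe's own value, and it became -0.15 without the probe. No paired analysis was possible because each genotype had 1 array. Dim members (Itga1, Itga2, Itgad, Itgb6) had scanner errors of 0.34 to 0.38.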
